A study of Homo sapiens with 4 samples.

Results

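Of 9313 filtered *BRAF* V600E mutant A375 melanoma cells made resistant to vemurafenib plus trametinib (RVT), 490 reached a minimum count of mitotic gene RNA. All 4 libraries of the series together held 30716 cell barcodes. The 490 cells were selected on their raw counts of 10 genes, *TOP2A*, *MKI67*, *CENPF*, *UBE2C*, *HMMR*, *TPX2*, *PLK1*, *CENPA*, *ASPM* and *BIRC5*, in UMIs (unique molecular identifiers, which count captured transcript molecules). A cell with a sum of at least 3 UMIs over these genes was called mitotic. A sum of 0, found in 7960 cells, made a cell non-mitotic, and the 863 cells with 1 or 2 UMIs were left between the classes. The rule was applied to RVT barcodes that had 500 or more detected genes and no more than 20% mitochondrial UMIs. Every other gene was then compared in CPM, its UMIs summed over the cells of a class per 1000000 UMIs of that class.

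A375 is an established human melanoma line, and all 4 groups carried the same *BRAF* mutation. S cells were untreated, RV cells resistant to vemurafenib, a BRAF inhibitor, and RVC and RVT cells resistant to vemurafenib together with cobimetinib or trametinib, both MEK1/2 inhibitors. The 3 resistant cultures had been held on the drugs for 10 to 14 days below their IC50, and the drugs were withdrawn 24 h before capture, so the RVT cells described here were measured off drug. Each group was captured once, as a droplet library made with 10x Genomics Chromium v2 chemistry from 10000 loaded cells, and there was no replicate, so no difference between libraries or between cell classes was tested. All intervals are exact 95% intervals and cover counting error only.

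In a cycling cell, E2F factors switch on the genes of DNA replication in late G1 and S phase. Genes of the spindle, the kinetochore and the mitotic kinases follow in G2 and M phase, under B-MYB and FOXM1, and many of them are held down in resting cells by the DREAM complex at promoter elements such as the cell cycle homology region. MAPK signalling through BRAF and MEK drives melanoma cells through G1, and its inhibition is known to arrest them there.

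The mitotic class made up 5.26% of filtered RVT cells (4.82 to 5.73), or 8.05% of those with at least 1000 genes, the cells between the classes 9.27% and the non-mitotic class 85.5% (84.7 to 86.2). The RVT library held 10427 barcodes before filtering, more than the 10000 cells loaded. Whether all filtered barcodes were intact single cells was not established, and the shares rest on that number. The 10-gene sum of the mitotic class ranged up to 52 UMIs around a median of 12 (quartiles 7 and 19). Close to the minimum of the rule, 792 cells had a sum of 1, 71 cells a sum of 2, 26 cells a sum of 3 and 24 cells a sum of 4. Above these, 147 cells had 5 to 9 UMIs, 186 cells 10 to 19 and 107 cells 20 or more. Most RVT cells thus lay at 0 or 1, with few cells on either side of the minimum. Medians of 4102 UMIs and 1396.5 genes were captured from mitotic cells, against 2863.5 UMIs and 998 genes from non-mitotic cells. A minimum on raw counts itself favours deeper cells, so this gap is partly set by the rule. With classes made after thinning to 1500 UMIs, the median UMIs before thinning were 4034 and 3072. The median mitochondrial share of the unthinned classes was 5.80% and 5.78%. The mitotic cells held 7.27% of all UMIs of the filtered library.

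In S the same rule took 2263 of 6693 cells, a share of 33.8% (32.7 to 35.0). It took 1996 of 4327 in RV, 46.1% (44.6 to 47.6), and 4487 of 8307 in RVC, 54% (52.9 to 55.1). These libraries differed in depth, the mitotic cells having a median of 10499 UMIs in S, 13262.5 in RV and 5032 in RVC. After every cell was thinned to 1500 UMIs, a sum of at least 3 was found in 4.38% of RVT cells, with an interval of 3.96 to 4.84. The thinned share was 8.71% for S (8.05 to 9.41), 10.8% for RV (9.91 to 11.8) and 19.1% for RVC (18.3 to 20). Thinning left out 852 RVT and 403 RVC cells with fewer UMIs. RVT had the lowest share at both depths. With 1 library each, and with the sum that the rule itself used, this is a description of these libraries and not a comparison of the treatments.

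**Figure D1:**
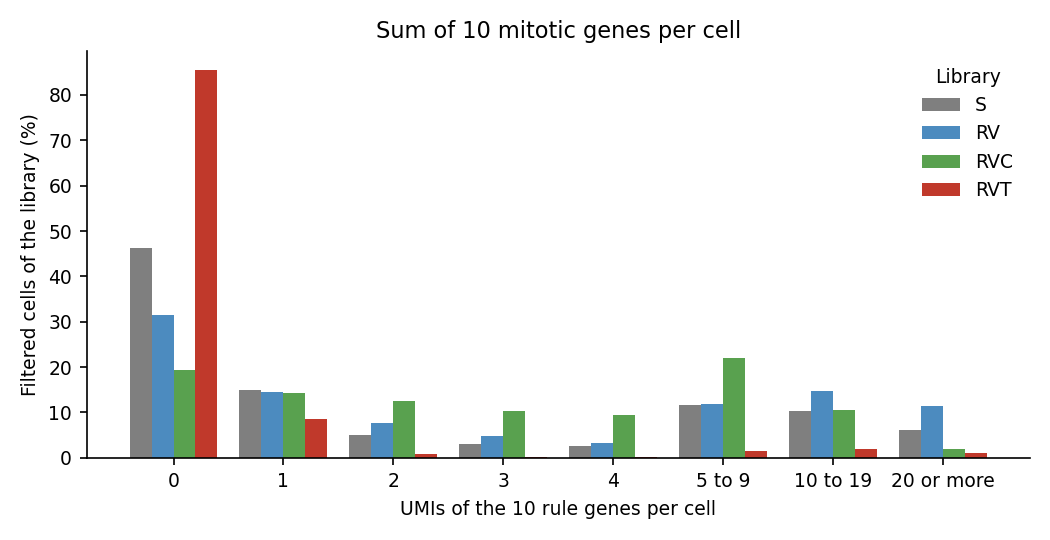
Share of filtered cells (y axis, percent) by the number of UMIs of the 10 rule genes per cell (x axis, bins) in the S, RV, RVC and RVT libraries, unthinned. RVT has 7960 of its 9313 cells at 0, and its remaining cells fall off steeply from 1 to 4 into a long tail that reaches 52, which the bins of unequal width gather up.

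The 5 genes used to mark the class were all found in it. *TOP2A*, the topoisomerase that untangles sister chromatids, was at 841 CPM (803 to 882) and was seen in 91.8% of mitotic cells. *CENPF*, a protein of the outer kinetochore, was at 898 (858 to 940), in 89.6% of the cells. *MKI67*, which coats mitotic chromosomes and is used as a proliferation marker, was at 314 (291 to 339), in 65.5%. *UBE2C*, the ubiquitin-conjugating partner of the anaphase-promoting complex, was at 264 (242 to 287), in 60.0%. *PLK1*, the polo-like mitotic kinase, was the sparsest of the 10 rule genes at 45.8 (37.1 to 55.9), in 17.1% of the cells. These levels were fixed by the rule and are given as a description.

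The cells that one part of the rule chose also held the genes of the other part. The first 5 rule genes, at 2 UMIs or more, picked 514 RVT cells, and the other 5 genes, which took no part in that choice, summed to 627 CPM in them and to 11.1 in cells without a UMI of the first 5, a ratio of 56.4 (49.5 to 64.5). The last 5 genes picked 339 cells, with 2659 against 32.9 CPM of the first 5, a ratio of 80.9 (75.1 to 87.2). Of the cells picked in these ways, 481 and 334 were in the mitotic class. As both sets of genes belong to the rule that defines the class, these values are a description. Genes of S phase were high in the class too, as given below, and cells in M phase were not told apart from cells in S or G2 phase.

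Outside the rule, 2138 genes reached 50 CPM in the higher class and were compared. Of these, 192 genes, 8.98% of those compared, were at least 2-fold higher in mitotic cells, and 29 genes, 1.36%, were at least 2-fold lower. The ratio was at least 4-fold for 98 of the higher and for 2 of the lower genes, and 52 genes were at least 16-fold higher. The median log2 ratio over all compared genes was 0.08. The classes were defined by expression in these same cells, and a gene that is rare in non-mitotic cells could pass the minimum level only by being high in mitotic ones, so these counts are read as no evidence about the class. Of the 192 genes, 92 belonged to a cell cycle list and 100 to none.

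**Figure D2:**
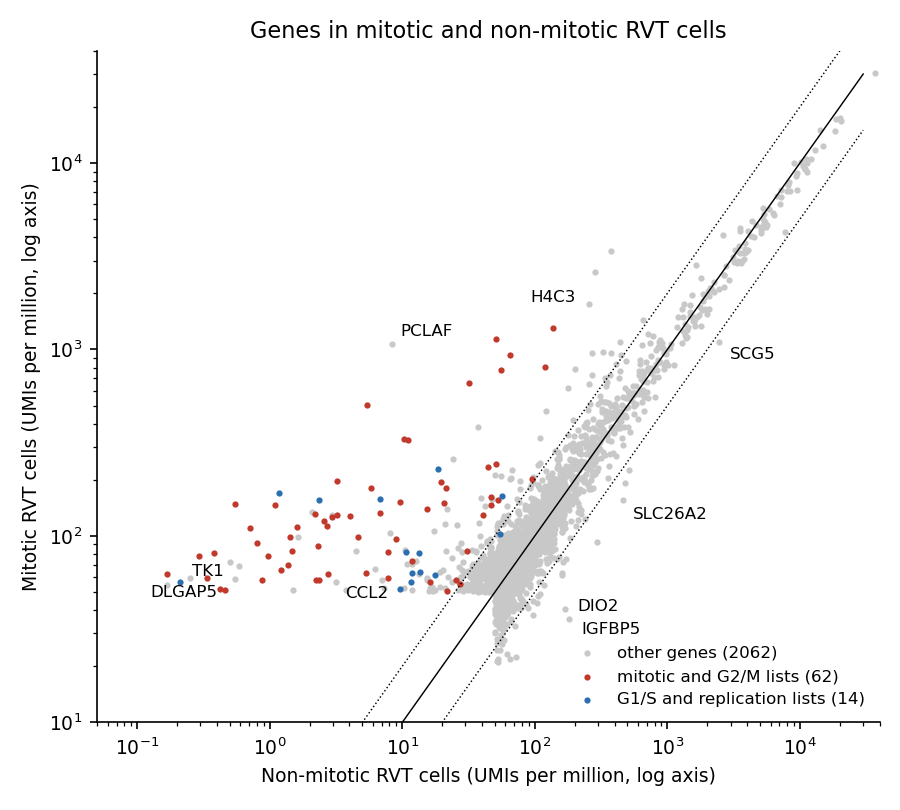
Level of each of the 2138 compared genes in non-mitotic (x axis) and mitotic (y axis) RVT cells, in CPM on log axes, with a solid line of equality and dotted lines at 2-fold. Red points are 62 genes of the mitotic and G2/M lists, blue points 14 genes of the G1/S and replication lists and grey points the remaining genes. Red and blue points lie above the upper 2-fold line except that of DUT, some close to the line and others far above it. Few genes lie below the lower line.

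Genes of mitotic entry were high in the mitotic class. The 16 genes of that list summed to 3485 CPM in mitotic and 295 in non-mitotic RVT cells, a ratio of 11.8 (11.4 to 12.2), and all 10 members that were compared were at least 2-fold higher, where the share of all compared genes was 8.98%. Most compared members of the mitotic lists were rare in non-mitotic cells and passed the minimum level through the mitotic class, which fixes their direction, so here and for the lists that follow the counts describe and the ratio is taken over all genes of the list. *CDK1*, the kinase that starts mitosis, was at 198 against 3.23 CPM, a ratio of 61.2 (47.9 to 79.2). Its partner *CCNB1*, cyclin B1, was at 326 against 11.1, a ratio of 29.4 (25.5 to 34.1). The CDK-binding subunits *CKS1B* and *CKS2* were the most abundant members in UMIs, at 1304 against 138 and 935 against 64.6. *FOXM1*, the transcription factor of the G2 and M program, was at 113 against 2.69. *WEE1*, the kinase that holds CDK1 inactive, differed least of the compared members, at 50.6 against 21.9.

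The list of the spindle checkpoint and mitotic exit summed to 2520 against 177 CPM, a ratio of 14.2 (13.7 to 14.8), with 11 of 11 compared members of 18 at least 2-fold higher. *PTTG1*, securin, the protein that keeps sister chromatids joined until anaphase, was at 1144 against 50.9, a ratio of 22.5 (20.9 to 24.1). *AURKA*, the kinase of the spindle poles, was at 331 against 10.3, and *BUB1B*, a component of the spindle checkpoint, was at 51.1 against 0.462. *CDC27*, a subunit of the anaphase-promoting complex, was already present in non-mitotic cells, at 57.7 against 25.5.

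Spindle and cytokinesis genes summed to 3770 against 285 CPM, a ratio of 13.2 (12.8 to 13.7), and 18 of 18 compared members of 26 were at least 2-fold higher. *NUSAP1*, which binds spindle microtubules, was at 504 against 5.42, a ratio of 93.1 (77.5 to 113). *STMN1*, stathmin, a microtubule-destabilising protein, was at 775 against 56.1. *KIF4A*, a chromosome-bound kinesin, was at 91.1 against 0.798. The kinetochore and centromere list had a ratio of 12.9 (12.2 to 13.5), with 12 of 12 compared members of 22 at least 2-fold higher, among them *NDC80*, which attaches kinetochores to microtubules, at 69.7 against 1.39.

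Genes of chromosome structure were more broadly present in non-mitotic cells, and their ratios were smaller. Condensin, cohesin and chromatin genes summed to 6947 against 1114 CPM, a ratio of 6.23 (6.11 to 6.36), with 17 of 17 compared members of 24 at least 2-fold higher. *H2AZ1*, a histone variant made outside S phase too, was at 3362 against 374, a ratio of 8.99 (8.71 to 9.28). *HMGB2*, a DNA-bending chromatin protein, was at 662 against 32.2, whereas its relative *HMGB1* was at 954 against 270. *RAD21*, a cohesin subunit, was at 227 against 67.0. Tubulins summed to 4932 against 1022, a ratio of 4.82 (4.71 to 4.94), and 5 of 6 compared members of 10 were at least 2-fold higher, led by *TUBA1B* at 2612 against 285.

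The genes with the largest ratios in RVT were mostly absent from non-mitotic cells. *DLGAP5*, a spindle assembly factor (chr14:55148112-55191678, minus strand, GRCh38), was at 62.5 CPM (52.3 to 74.2) against 0.168, a ratio of 372 (142 to 1390), and was seen in 23.5% of mitotic and 0.0503% of non-mitotic cells. *SHCBP1*, *GTSE1* and *TK1* followed with ratios of 327, 273 and 268. *TK1* is the thymidine kinase of the nucleotide salvage pathway and *GTSE1* a microtubule-binding protein of G2 and M phase. Further mitotic genes among the 15 with the largest ratios were the kinases *NEK2* (266) and *PBK* (134), the kinesins *KIF20A* (215) and *KIF14* (155), and the kinetochore gene *NUF2* (124). *PCLAF*, which binds the replication clamp PCNA, was the most abundant of them in UMIs, at 1068 (1024 to 1113) against 8.36 (7.24 to 9.60), a ratio of 128 (110 to 148), and was seen in 92.7% of mitotic and 2.14% of non-mitotic cells. Of the UMIs of each of these 15 genes in the 2 classes and between them, 82.6% (*NUF2*) to 95.4% (*TROAP*) were in the mitotic cells.

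The promoters of these genes are shown because many of them carry 2 elements known from cell cycle genes, the cell cycle homology region, with the letters TTTGAA, and the CCAAT box, which binds the factor NF-Y. The 4 genes are those with the largest ratios among the named mitotic genes whose RefSeq promoter holds TTTGAA. Each run covers the 150 bases before to 25 bases after the RefSeq start (GRCh38.p14), 5′ to 3′ on the strand of the gene, with both elements in capitals on either strand. On the opposite strand TTTGAA appears as TTCAAA. The CCAAT box then appears with the letters ATTGG. They lie at chr14:55191561-55191735 on the minus strand (*DLGAP5*), chr16:46621355-46621529 on the minus strand (*SHCBP1*), chr22:46296720-46296894 on the plus strand (*GTSE1*) and chr1:200620727-200620901 on the minus strand (*KIF14*).
DLGAP5: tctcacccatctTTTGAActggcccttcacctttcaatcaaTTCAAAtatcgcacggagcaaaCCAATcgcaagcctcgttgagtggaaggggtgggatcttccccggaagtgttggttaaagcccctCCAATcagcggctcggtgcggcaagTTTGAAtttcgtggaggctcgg
SHCBP1: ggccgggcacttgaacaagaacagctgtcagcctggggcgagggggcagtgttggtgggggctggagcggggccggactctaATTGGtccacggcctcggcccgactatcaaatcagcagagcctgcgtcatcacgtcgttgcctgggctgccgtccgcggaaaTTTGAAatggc
GTSE1: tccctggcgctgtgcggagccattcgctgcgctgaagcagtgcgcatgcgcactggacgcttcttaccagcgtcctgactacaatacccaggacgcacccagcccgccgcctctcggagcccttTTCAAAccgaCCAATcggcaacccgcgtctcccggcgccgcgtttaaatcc
KIF14: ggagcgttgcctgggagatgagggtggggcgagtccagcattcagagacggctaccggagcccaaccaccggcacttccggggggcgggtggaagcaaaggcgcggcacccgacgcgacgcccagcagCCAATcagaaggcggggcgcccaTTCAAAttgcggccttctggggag

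Positions are counted from the start of the gene, within the stretch shown. In *DLGAP5* TTTGAA elements began at -138, -109 and 4 and CCAAT boxes at -87 and -22. The element and the box began at 15 and -68 in *SHCBP1*, at -26 and -16 in *GTSE1* and at 2 and -22 in *KIF14*. Over windows of 250 bases before to 50 bases after the start, TTTGAA on either strand was found in 59 of the 157 higher genes that had a promoter in the RefSeq table (37.6%), in 25 of 42 of the genes at least 16-fold higher (59.5%) and in 4 of 27 of the lower genes (14.8%). It was found in 11.2% of the promoters of 1789 compared genes and in 15.4% of all 27305 promoters of the table. CCAAT on either strand was found in 59.9% of the higher, 76.2% of the 16-fold higher and 44.4% of the lower genes, against 41.9% of the compared genes and 35.7% of all promoters. Of the 10 rule genes, 7 had a promoter in the table, and each of the 7 held both elements. These are matches of letters, not binding sites.

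DNA replication genes were higher in the mitotic class as well. The 43 genes of the G1/S list summed to 1635 CPM in mitotic and 283 in non-mitotic RVT cells, a ratio of 5.77 (5.54 to 6.02), and the 9 that were compared were all at least 2-fold higher. *RRM2*, the small subunit of ribonucleotide reductase, was at 170 against 1.18, a ratio of 145 (98.5 to 221). *TYMS*, thymidylate synthase, was at 157 against 6.80, a ratio of 23.1 (19.1 to 28.1). *CLSPN*, the replication checkpoint adaptor claspin, was at 156 against 2.35. *NASP*, a histone chaperone, differed less, at 164 against 57.0.

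Origin licensing and replication genes summed to 1516 against 234 CPM, a ratio of 6.47 (6.20 to 6.76), and 10 of 11 compared members of 34 were at least 2-fold higher. *PCNA*, the replication clamp, was at 56.8 against 11.7, a ratio of 4.85 (3.88 to 6.03), and *MCM3*, of the replicative helicase, was at 62.0 against 17.8. *DUT*, which removes dUTP, was the member short of 2-fold, at 103 against 54.5. Histone cluster genes summed to 1953 against 619, and the 2 that were compared went apart. *H4C3*, a replication-dependent histone H4 gene, was at 1750 against 255, a ratio of 6.86 (6.59 to 7.15), whereas the linker histone gene *H1-2* was at 61.6 against 159. The histone list was the only cell cycle list plotted whose ratio in RVT, 3.16 (3.05 to 3.27), was below those in S (4.96) and RV (5.45), and it was 2.42 in RVC. Replication-dependent histone transcripts carry no poly(A) tail, which the capture of this kit primes on, so their counts are a partial view.

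At least 3 UMIs of the G1/S list were present in 84.7% of mitotic RVT cells (81.2 to 87.8), in 11.5% of the cells between the classes and in 6.50% of non-mitotic cells, at the median depths given above. Thinned to 1500 UMIs and classed anew, which left 371 mitotic RVT cells, the shares were 41.0% (35.9 to 46.2), 11.8% and 1.29% (1.05 to 1.57). In the other libraries the shares without thinning were also highest in mitotic cells, at 96.2%, 67.2% and 47.0% for the 3 classes in S, with RV at 98.2%, 79.8% and 62.8% and RVC at 83.8%, 65.9% and 37.9%. After thinning S was at 24.2%, 34.7% and 9.55%, RV at 35.9%, 36.6% and 16.5%, and RVC at 29.1%, 29.2% and 23.9%.

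Within the mitotic class, the replication and mitotic lists followed the 10-gene sum differently. The G1/S list was at 1853 CPM (1642 to 2085) in cells with a sum of 3 to 4 (50 cells), 1638 (1529 to 1752) at 5 to 9 (147 cells) and 1612 (1546 to 1679) at 10 or more (293 cells), against 369 between the classes. The replication list was at 1660, 1499 and 1507, against 304, so neither list was higher at larger sums. The G2/M list was at 4467 (4135 to 4818), 5400 (5202 to 5604) and 8332 (8182 to 8483), against 841, and the mitotic entry list at 2080, 2580 and 3961, against 361. Single genes varied around this. *TYMS* was at 153, 154 and 159 and *RRM2* at 240, 166 and 165, while *PCLAF* was at 853, 997 and 1116. *CCNB1* was at 140, 212 and 387 and *PTTG1* at 620, 773 and 1334, while *CEP55*, of cytokinesis, was at 73.3, 57.9 and 72.8. The bins were cut on genes of mitosis, so the order of the mitotic lists is a description. Median UMIs per cell were 2618, 3169 and 4741 in the 3 bins, so depth moved with the sum, and its part in this pattern was not tested.

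**Figure D3:**
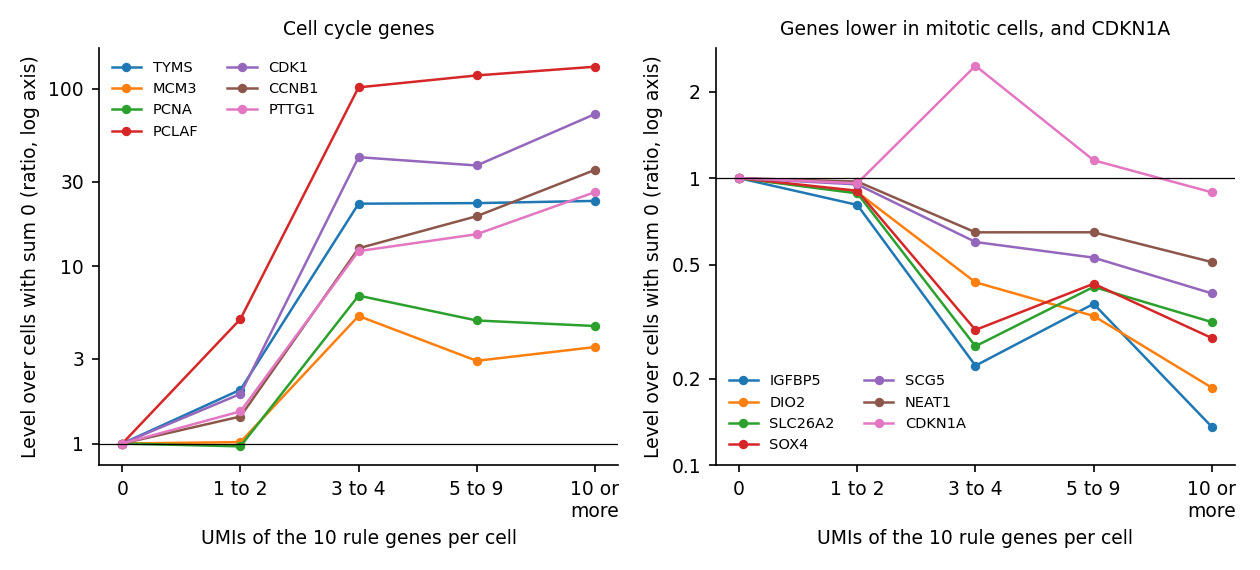
Level of 14 genes in RVT cells by the UMIs of the 10 rule genes per cell (x axis, 5 bins), relative to cells with a sum of 0 (y axis, ratio on a log axis). Left, TYMS, MCM3 and PCNA are no higher, or little higher, at larger sums than at 3 to 4, while CDK1, CCNB1 and PTTG1 are highest at 10 or more. Right, IGFBP5, DIO2, SLC26A2, SOX4, SCG5 and NEAT1 are lower in every bin from 3 on. CDKN1A is at 280, 131 and 102 CPM in these bins, of which the first holds only 50 cells.

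The 100 higher genes in no cell cycle list include *SHCBP1*, *TROAP*, *DEPDC1*, *PCLAF* and *CEP55*, all among the 15 largest rises. Absence from the lists thus does not set a gene apart from the cell cycle, and many of the 100 are known cell cycle or repair genes. The following genes were named after their values were seen. *KPNA2*, a nuclear import receptor, was at 383 against 37.2 CPM, *UBE2T*, the ubiquitin-conjugating enzyme of the Fanconi anaemia pathway, at 260 against 24.1, *BRCA1*, of homologous recombination, at 104 against 8.02, and *DNMT1*, the maintenance DNA methyltransferase, at 83.5 against 21.4. Of the others, *CAV1*, *TGM2* and *MT2A* are not cell cycle genes by common description. *CAV1*, the coat protein of caveolae, was at 730 against 272, a ratio of 2.69 (2.54 to 2.84). *TGM2*, a transglutaminase, was at 144 against 42.4, a ratio of 3.40 (2.98 to 3.87), and *MT2A*, a metallothionein, at 336 against 109, a ratio of 3.10 (2.84 to 3.37). *RAN*, the GTPase of nuclear transport and spindle assembly, was at 1091 against 441. On the log2 scale the ratios of *CAV1* were 0.46 in S, 0.56 in RV and 0.19 in RVC against 1.43 in RVT. In the same order those of *TGM2* were 0.78, 0.21 and -0.05 against 1.76. Those of *MT2A* were 1.22, 1.197 and 0.52 against 1.63, so it was also at least 2-fold higher in S and RV. For *RAN* they were 0.38, 0.84 and 0.58 against 1.31. All 4 were picked for a high ratio in RVT, which by itself favours lower values elsewhere. Nothing is read from these differences.

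Lists of genes that control G1 differed little in their sums between the classes. The list of G1 cyclins, E2F and RB family genes summed to 452 against 367 CPM, a ratio of 1.23 (1.15 to 1.32), with neither of its 2 compared members of 16 past 2-fold. These were *CDK4* at 149 against 126 and *CDK6* at 98.8 against 114, the kinases that cyclin D activates. They made up most of the sum, and the cyclin, E2F and RB family genes of the list stayed under the minimum level. The ratio of the list therefore does not describe those genes, and no similarity between the classes is read for them. CDK inhibitors and quiescence genes summed to 861 against 1010, a ratio of 0.852 (0.812 to 0.894), and none of the 5 compared members of 15 passed 2-fold either way. *CDKN1A*, the CDK inhibitor p21, was at 122 against 114, a ratio of 1.07 (0.937 to 1.22). It was at 74.4 against 128 in S, 160 against 412 in RV and 91.9 against 249 in RVC, so that the other libraries had less of it in mitotic cells. Within the mitotic RVT class *CDKN1A* was uneven. It was at 280 CPM in cells with a sum of 3 to 4, 131 at 5 to 9 and 102 at 10 or more. The first of these bins held only 50 cells with 149991 UMIs, so its level rests on few UMIs of the gene. The 20 p53 target genes summed to 1111 against 1025 in RVT, a ratio of 1.08 (1.04 to 1.13), and both compared members stayed under 2-fold. In the other libraries this list was lower in mitotic cells, with ratios of 0.769 in S, 0.779 in RV and 0.639 in RVC.

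Readouts of MAPK signalling were not raised as a group. The ERK output list summed to 532 against 607 CPM, a ratio of 0.876 (0.824 to 0.931). Of its 4 compared members of 16, *FOSL1*, an AP-1 transcription factor, was at least 2-fold higher, at 51.1 against 11.8, a ratio of 4.34 (3.44 to 5.45). Its log2 ratio was 2.12 in RVT, 1.24 in S, 1.38 in RV and 0.63 in RVC. *PHLDA1* was at 113 against 205 and *EGR1* at 85.4 against 119. Immediate-early genes summed to 297 against 407, a ratio of 0.730 (0.672 to 0.792), with none of 4 compared members of 10 past 2-fold, and *FOS* was at 42.0 against 71.4. The ratio of this list was 1.48 in S, 1.56 in RV and 1.03 in RVC, so that RVT alone of the 4 libraries had a lower sum in mitotic cells.

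Other programs lay within 2-fold. Heat shock genes summed to 4321 against 2936 CPM, a ratio of 1.47 (1.44 to 1.5), and 1 of 11 compared members of 12, *HSP90AA1*, the inducible cytosolic HSP90, was at least 2-fold higher, at 954 against 373. Glycolysis genes had a ratio of 1.19 with 0 of 8 compared members past 2-fold, although *LDHA* was at 633 against 345. The ratio was 1.24 for proteasome genes (0 of 26), 0.988 for nuclear oxidative phosphorylation (0 of 60), 0.901 for ribosomal proteins (0 of 81), 1.15 for cholesterol and fatty acid genes (0 of 1) and 0.894 for interferon and MHC class I genes (0 of 8). Extracellular matrix and EMT genes (1.05, 0 of 10), stress response genes (1.04, 0 of 4) and the mitochondrial genome (1.01, 0 of 12) were so close to 1 that their direction turned under another scaling of the classes. Within the matrix and EMT list, *VIM*, vimentin, was at 560 against 311.

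A list of genes that the study named for its cell clusters, not all of them clusters mainly of RVT cells, had a ratio of 0.779 in RVT. It was 0.815 in S, 0.689 in RV and 0.842 in RVC. None of the 11 compared genes of that list of 22 passed 2-fold in RVT, where 8.98% of all compared genes were higher and 1.36% lower. The study made its clusters on cells of all 4 groups, this library among them, so the list is not independent evidence of a direction. *NEAT1*, a nuclear long noncoding RNA, was at 4278 against 7720 CPM, a ratio of 0.554 (0.542 to 0.566), and *MALAT1*, another one, at 16798 against 20232. The study named both of them for clusters found mainly in RV or RVC. Neural crest-like genes summed to 436 against 635, a ratio of 0.687 (0.642 to 0.734). Of these, *CD74*, the chaperone of MHC class II, was at 363 against 525 and *HLA-DRA*, an MHC class II chain, at 49.1 against 85.9. They were the 2 compared members of 13 and made up most of both sums. The ratio thus describes these MHC class II genes and not the rest of the list, which stayed under the minimum level.

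**Figure D4:**
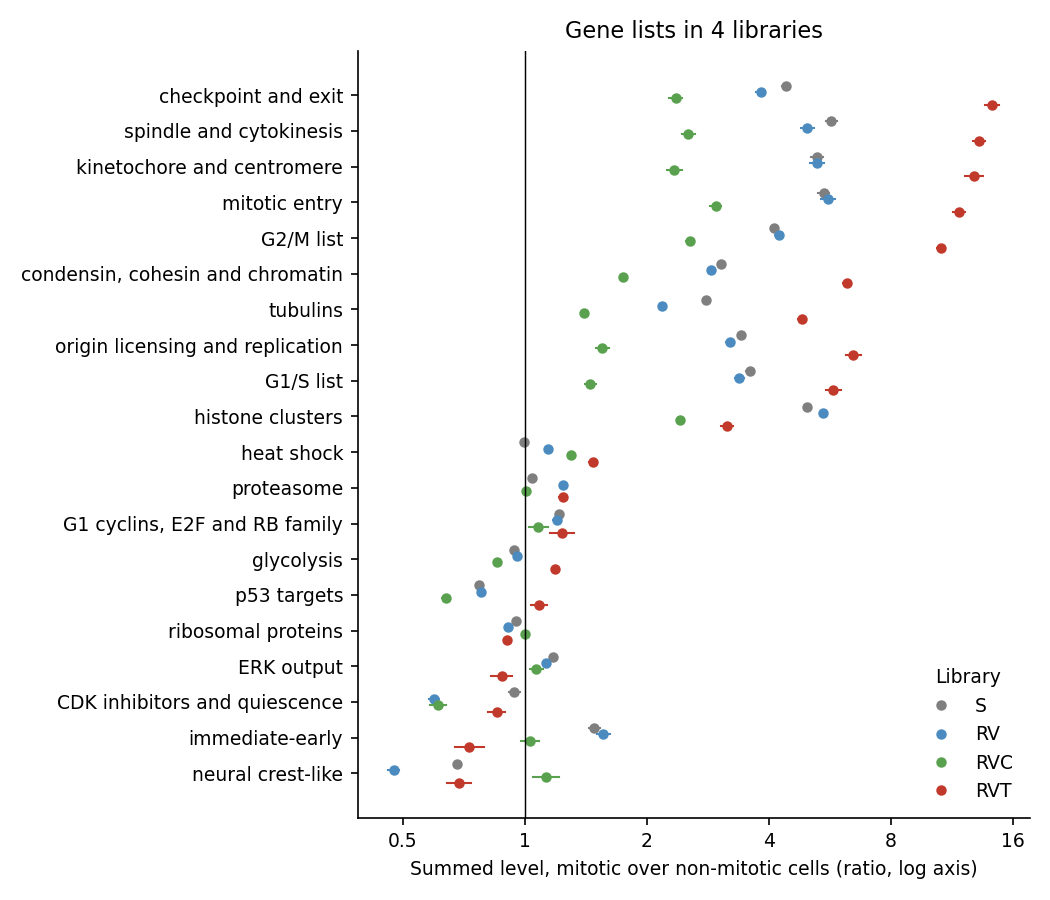
Ratio of the summed level of 20 gene lists in mitotic over non-mitotic cells (x axis, log scale, line at 1) in the S, RV, RVC and RVT libraries, with 95% counting intervals as bars. The lists of mitotic entry, checkpoint, spindle and kinetochore genes are at 11.8 to 14.2 in RVT, to the right of the other libraries, and the RVT lists that are not of the cell cycle lie between 0.687 and 1.47.

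The genes that were lower in mitotic RVT cells were fewer and their differences smaller. The largest was that of *IGFBP5*, an insulin-like growth factor binding protein (chr2:216672105-216695525, minus strand, GRCh38), at 35.8 CPM (28.2 to 44.9) against 180 (175 to 185), 5.03-fold lower (4.0 to 6.4). It was seen in 6.94% of mitotic and 16.8% of non-mitotic cells, and 15 of its 75 UMIs in the mitotic class were in 1 cell. *DIO2*, the deiodinase that activates thyroid hormone, was at 40.6 against 169, 4.17-fold lower, and *PCSK1*, a prohormone convertase, was at 22.4 against 72.1, 3.22-fold lower. *SOX4*, a transcription factor, was at 92.6 against 293, and *SLC26A2*, a sulfate transporter, at 156 against 462. *IGFBP3*, another IGF binding protein, was at 63.5 against 160, with 12.0% of its mitotic UMIs in 1 cell. *COSMOC* and its neighbour *MOCOS* were both on the list, at 192 against 481 and 37.7 against 96.2. *SCG5*, a secretory granule protein named after its values were seen, was at 1092 against 2459.

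The lower genes were expressed unevenly across the other libraries. *DIO2* reached at most 1.41 CPM in any class of S, RV or RVC. *SLC26A2* was also lower in mitotic cells of S, at 104 against 303, and of RV, at 23.3 against 111, but was at 14.9 against 14.4 in RVC. *SOX4* was at 247 against 330 in RVC and at 39.1 against 37.4 in S. *IGFBP5* was at 20.2 against 45.5 in S, 0.664 against 3.67 in RV and 178 against 257 in RVC. Of the lower RVT genes that were compared in the other library too, 2 of 10 were at least 2-fold lower in S, 5 of 11 in RV and 1 of 12 in RVC, while 7, 9 and 12 of them had a ratio below 1. The share of all compared genes that were at least 2-fold lower was 0.195% in S, 1.17% in RV and 0.112% in RVC. The median ratio over all compared genes was 1.03 in S, 1.16 in RV and 1.04 in RVC. The lower genes were chosen for a low ratio in RVT, which by itself favours weaker values elsewhere, so nothing is read from these counts.

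**Figure D5:**
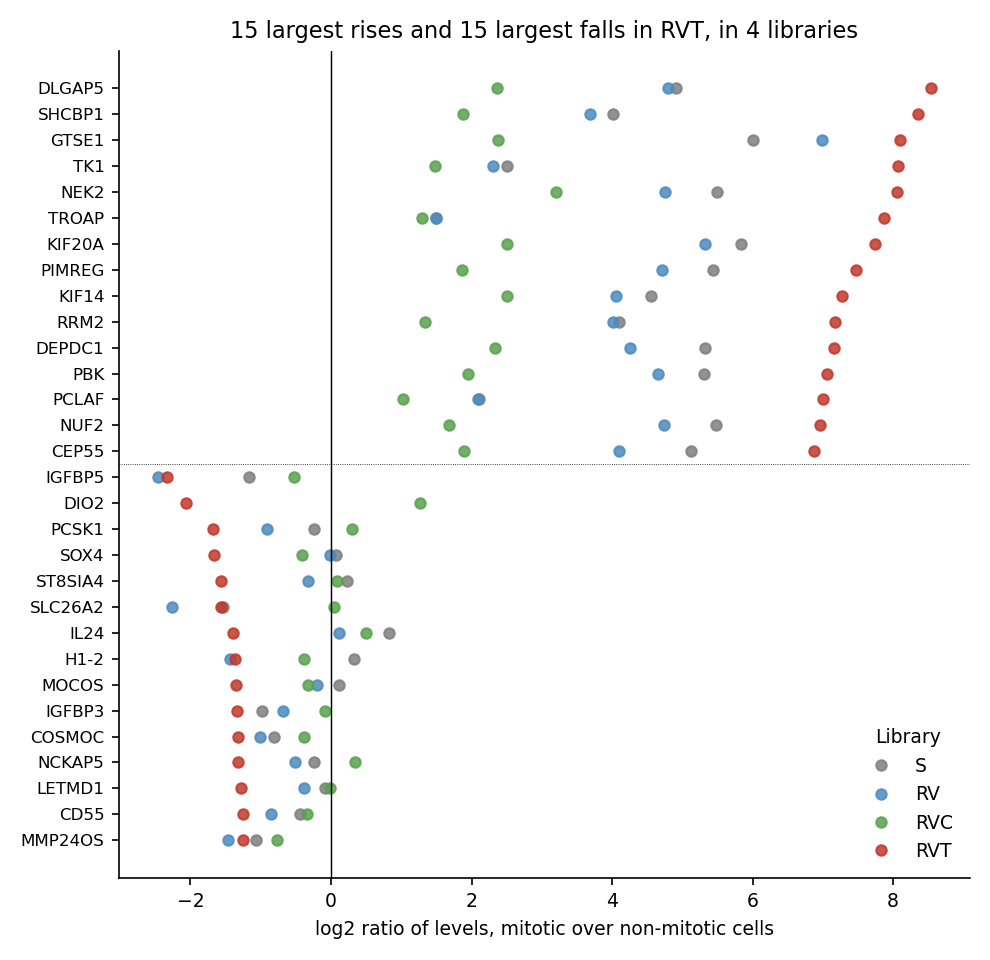
Log2 ratio of the level in mitotic over non-mitotic cells (x axis, line at 0) for the 15 genes with the largest rises and the 15 with the largest falls in RVT, in the S, RV, RVC and RVT libraries; a point is left out where both classes hold 3 UMIs or fewer. RVT points of the higher genes lie to the right of the other libraries, and those of the lower genes mostly lie to the left of them, with RV farther left for IGFBP5, SLC26A2, H1-2 and MMP24OS. The genes were chosen for their ratio in RVT, which by itself favours this order.

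The contrast between the classes was steeper in RVT than in the other libraries. G2/M genes without the rule genes summed to 7331 against 690 CPM in RVT, a ratio of 10.6 (10.4 to 10.9). Of 46 members, 33 were compared and all 33 were at least 2-fold higher, where the share of all compared genes was 8.98%. The minimum level fixes the direction of members that are rare in non-mitotic cells, so this count is only a description. The ratio of the summed list was 4.12 in S, 4.23 in RV and 2.55 in RVC. With every cell thinned to 1500 UMIs it was 11.6 in RVT (11.2 to 12.0), 4.56 in S, 3.76 in RV and 2.21 in RVC. The thinned levels in mitotic cells were 8246 in RVT, 4030 in S, 4296 in RV and 5581 in RVC, and in non-mitotic cells 711, 883, 1141 and 2527. Thinned cells were classed anew, and without thinning the levels in non-mitotic cells were 690 in RVT, 646 in S, 703 in RV and 1767 in RVC, so RVT was lowest only after thinning. The unthinned levels in mitotic cells were 7331 in RVT, 2667 in S, 2975 in RV and 4511 in RVC. For the G1/S list the ratios were 5.77 in RVT, 3.59 in S, 3.38 in RV and 1.45 in RVC without thinning. After thinning and classing anew they were 5.70, 1.98, 1.79 and 1.15, a wider gap.

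Among all compared genes, 4.35% in S, 5.1% in RV and 1.96% in RVC were at least 2-fold higher in mitotic cells. Of the higher RVT genes that were compared in the other library as well, 50 of 101 were at least 2-fold higher in S, 55 of 108 in RV and 32 of 122 in RVC. Their median log2 ratio was 1.63 in RVT against 0.98 in S, 1.63 against 1.02 in RV and 1.80 against 0.60 in RVC. These genes were chosen for a high ratio in RVT, which by itself favours lower values elsewhere, so nothing is read from these counts and medians. Among genes that reached 50 CPM in a class of both libraries, the largest differences to RVC were those of *PCLAF*, with a log2 ratio of 7.0 in RVT and 1.03 in RVC, *RRM2*, with 7.18 and 1.34, *GTSE1*, with 8.09 and 2.37, *PBK*, with 7.06 and 1.94, and *CCL2*. In the other direction, under the same limit, they were those of *IGFBP5* (-2.33 and -0.53), *SOX4* (-1.66 and -0.42), *H1-2* (-1.37 and -0.38), *GABPB1-AS1* (-0.73 and 0.21) and *POLDIP2* (-0.51 and 0.35). Library, depth and drug cannot be told apart in these comparisons, and S and RV were counted on another gene annotation than RVC and RVT.

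*CCL2*, a chemokine, was at 56.8 against 3.19 CPM in RVT, a log2 ratio of 4.15, and 78 of its 119 UMIs in mitotic cells were in 1 cell. This gene was among 19 genes, chosen after their values were seen, that had at least 100 CPM in non-mitotic RVC cells and at least 20-fold less in non-mitotic RVT cells. Their sum was 228 CPM in mitotic and 76.4 in non-mitotic RVT cells, against 12371 and 19314 in RVC. In RVT 16 of the 19 were higher in mitotic than in non-mitotic cells, 10 of them at least 2-fold, and *SUCNR1* had no UMI in either class. The share of all compared genes was 8.98%, but most of the 19 lay under the minimum level of 50 CPM and were not among those. The choice by a low level in non-mitotic RVT cells itself favours high ratios, so nothing is read from this count. At least 10 UMIs of them were found in 6 mitotic RVT cells (1.22%) and in 3 non-mitotic ones, with a maximum of 98 UMIs in a cell. Without these cells 190 genes were at least 2-fold higher and 31 lower, and the log2 ratio of *CCL2* was 2.27. The 12 genes chosen in the same way for RVT summed to 5001 CPM in mitotic and 4881 in non-mitotic RVT cells, against 58.5 and 58.8 in RVC. *SPANXB1*, a cancer-testis gene, made up much of this sum, at 2412 against 1786.5 CPM. Of the 12 genes, 5 were higher in mitotic cells and 3 at least 2-fold lower.

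Of the markers of other cell types, those of fibroblasts were present in both classes and the others were at or near 0. Of 4 leukocyte markers 1 had a UMI, with 4 UMIs in mitotic and 8 in non-mitotic cells, and of 2 endothelial markers 1 had a UMI, with 3 and 13. Epithelial markers had 0 and 1 UMI, and the erythroid marker *HBB* had 0 in both. The 3 fibroblast markers were all detected and summed to 22.0 CPM in mitotic and 33.4 in non-mitotic cells, and their part in the other results was not tested. The barcodes of 292 filtered RVT cells, 11 of them mitotic, also occurred in another library, and without them 190 genes were at least 2-fold higher and 30 lower.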

How the data were processed

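Single-cell RNA was measured in 4 libraries of A375 cells, 1 for each of S, RV, RVC and RVT. The authors used Chromium v2 chemistry of 10x Genomics, and the submitters' processing notes name bcl2fastq 2.20.0.422, Cell Ranger and GRCh38. The deposited values were raw UMI counts, whole numbers for each gene in each barcode, and the filters and annotation behind them are not given in the sources used here. S and RV listed 33694 gene identifiers, RVC and RVT 33538, of which 33113 RVT identifiers had a symbol.

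Cells were filtered and classed as given in the report, and doublets were kept in the reported values. RVT held 10427 barcodes, of which 1114 were removed, leaving 2095484 UMIs in the mitotic and 23812928 in the non-mitotic class. UMIs were summed per class and gene and expressed as CPM, a class without a UMI being set to 3 UMIs. Exact Poisson intervals were used for levels, exact binomial intervals for ratios and Clopper-Pearson intervals for shares, with python 3.11.15, numpy 2.4.6, pandas 2.3.3 and scipy 1.17.1. Cells were thinned with seed 1. The ratios were tested on simulated counts. Scrublet scores came from scanpy 1.11.5, TMM factors from edgeR 4.0.16 in R 4.3.3, figures from matplotlib 3.10.9 and gene positions from GENCODE 29.

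The cells and the gene lists were chosen with earlier results of these data known, so nothing here is independent support for a pattern seen before. Genes were named as rule genes, as 2 to 6 members per list with the highest level in mitotic RVT cells or the largest change, as the 15 largest rises and falls, and as the 5 largest differences to RVC either way, at a minimum of 50 CPM. The alternatives were other minimums of the rule, cell filters, removal of doublets, parts of the rule, thinning, scalings, cell weights, depth matching, another non-mitotic class and other minimum levels. Leaving out cells with RVC genes or shared barcodes was added after seeing the data.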

Additional observations from a re-analysis of the deposited data

Results flagged for a closer look

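Of the 1114 RVT barcodes that the cell filters removed, 47 had a sum of at least 3 UMIs of the rule genes, 4.22% (3.12 to 5.57). These barcodes were left out of the reported comparisons and entered only the alternative with all deposited barcodes, in which 5.15% of barcodes were mitotic, and there are no control samples for them. A count of 0 would have allowed a share of up to 0.269%. Their median was 721 UMIs, with 34.8% on mitochondrial genes. Of the 47, 40 were under the minimum of genes and 41 over the maximum of mitochondrial UMIs.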

How the results depend on the processing

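In the 19 alternatives run, all 33 genes named for their rise, fall or difference to RVC kept their sign, and of the lists those of matrix and EMT, stress response and mitochondrial genes turned. Changing the minimum level, or the value set for a class without a UMI, could not alter the ratios of these genes. The genes were also picked as extremes of the main comparison, which favours a kept sign. The mitotic share of RVT cells, 5.26%, was 6.02% with a minimum of 2 UMIs, 4.72% with 5 UMIs, 8.05% among cells with at least 1000 genes, 3.64% by the last 5 rule genes and 4.38% after thinning. The 192 higher genes of 2138 compared became 565 of 7428 at a minimum of 10 CPM and 95 of 1008 at 100. The 29 lower genes became 175 and 15 at these minimums, 53 after thinning and 77 with library sizes that left out ribosomal protein and mitochondrial genes. That scaling compared 3691 genes, gave 258 higher ones and moved the median log2 ratio of all compared genes from 0.08 to -0.05, and TMM factors of 1.03 and 0.969 moved it to -0.03, with 161 higher and 42 lower genes. The G2/M ratio of 10.6 was 9.75 with a minimum of 2 UMIs, 10.9 with 5 UMIs, 11.2 without the highest doublet scores, 10.2 by the first 5 rule genes, 11.6 after thinning, 9.98 with TMM, 9.92 without ribosomal protein and mitochondrial genes, 11.3 against depth-matched non-mitotic cells and 10.4 against all cells below 3 UMIs. The G1/S ratio of 5.77 was 5.43 with a minimum of 2 UMIs, 6.02 without the highest doublet scores, 5.33 by the last 5 rule genes, 5.42 with TMM and 5.39 without ribosomal protein and mitochondrial genes. The other 56 of these values moved by less than their counting interval or by less than 1.5 times for counts. The doublet rate removed 694 filtered cells, 51 of them mitotic, while the tool's own threshold marked 1.

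No paired analysis was possible because each group is 1 library, and there was no replicate to leave out. Depth limits the sparse genes: *IGFBP5* had 75 UMIs in the mitotic class, 15 of them in 1 cell.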
